A study of Mus musculus with 20 samples.

Results

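Skeletal muscle of trained transgenic mice was set against that of untrained wild-type mice, to ask whether trained transgenic muscle stands at the untrained wild-type level. The members are the mice whose titles begin with TGT (trained transgenic, n = 5) and WTUT (untrained wild-type, n = 5), 10 of the 20 mice in the series, with 1 array of total RNA per mouse. The transgenic mice over-express MHC-I and the training is endurance training, as the series title has it. The sources used here give no promoter, construct, strain, sex, age, muscle, training protocol or time of sampling, and they do not spell out the abbreviation MHC-I. The groups differ in genotype and in training together, so this comparison alone cannot tell the 2 apart. The other 10 mice, 5 trained wild-type (WTT) and 5 untrained transgenic (TGUT), entered the same fit and form a second comparison, untrained transgenic minus trained wild-type, that shares no mouse with the first.

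Muscle fibres are slow and oxidative or fast and glycolytic, and each kind carries its own versions of myosin, troponin and the calcium pump of the sarcoplasmic reticulum. Endurance training is known to raise mitochondrial enzymes, and in some settings it moves fibres toward the slower kinds. Muscle mass is held between synthesis and breakdown, and breakdown runs through the proteasome and through autophagy, which FoxO transcription factors and glucocorticoids drive.

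The 10 arrays of the 2 groups read as skeletal muscle. The fast myosin Myh4 averaged 14397 ± 618 intensity (SD, n = 5) in trained transgenic and 14101 ± 408 in untrained wild-type mice. Array medians ran from 157 to 175 in the 20 mice. Probe sets at the 3' and 5' ends of Gapdh, compared to judge RNA quality, differed on average by 0.01 log2 in both groups, and those of Actb by -0.31 in trained transgenic and -0.28 in untrained wild-type mice. The array of TGT-133 has 386 empty cells, and that of wtt-137, in the second comparison, has 822.

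The groups differed in 522 of 8486 genes tested, 6.15%, at an adjusted p under 0.05 (limma with Benjamini-Hochberg adjustment). Trained transgenic mice were lower in 380 of them, 4.48% of all genes, and higher in the rest, 1.67%. These shares stand as the comparison for the list counts below. By probe set, 857 of 13576 were called (6.31%), 212 higher (1.56%) and 645 lower (4.75%), while the median log2 difference of all probe sets was 0.02. At an unadjusted p under 0.05 there were 3024 of the 13576 probe sets, to be held beside the list counts at that threshold. For 7412 genes, 87.3%, the 95% interval of the difference lay within 0.5 log2 of 0, and for 8217, 96.8%, within 1 log2. All 5 trained transgenic mice lay below all 5 untrained wild-type mice in 621 genes (7.32%) and above them in 289 (3.41%). Of the probe sets called, 75.3% were lower. That share was 56.2% under quantile normalization and 81.4% with arrays centred on their medians. The count of 857 rested on single mice: it was 177 without TGT-128, 322 without TGT-140, 421 without TGT-143, 533 without WTUT-130, 216 without WTUT-135 and 258 without WTUT-142. Refitting without each of the 20 arrays in turn, a leave-one-out fit, kept 19 of the 69 named calls throughout.

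Slow fibre genes were lower in trained transgenic than in untrained wild-type muscle. Of 10 tested slow fibre contractile genes 5 were lower and none higher, against 4.48% of all genes lower. Their median was -1.12 log2 against 0.02 for all genes tested. Without probe sets whose names mark possible binding to several transcripts, 2 were lower, Myl2 and Myh7. Tnnt1, Tnni1 and Atp2a2 were then not tested, since their probe sets were left out. With array weights 8 were lower. Myl2, which encodes the slow regulatory myosin light chain, had the largest difference of all named genes. Per-mouse values are given in the order of the mouse numbers. It read 200.2, 337, 141.4, 398 and 173 in intensity in the trained transgenic mice and 3379, 1109, 2138, 1503 and 739 in the untrained wild-type mice. No trained transgenic mouse reached the lowest wild-type mouse. Myl2 fell by 2.43 ± 0.39 log2 (SE), 5.38-fold (limma adjusted p = 0.00455), with an interval from -3.24 to -1.62.

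The troponins of slow fibres, which make contraction sensitive to calcium, were lower too. Tnnt1, slow troponin T, read 138.7, 262, 161, 279 and 137.8 in trained transgenic mice and 2329, 722, 1484, 1112 and 458 in untrained wild-type mice. Its difference was -2.14 ± 0.41 log2, 4.41-fold (limma adjusted p = 0.00804). Tnni1, slow troponin I, read 119, 199, 162, 166 and 117 against 896, 319.9, 625, 459 and 282, and fell by 1.32 ± 0.25 (limma adjusted p = 0.00698). The groups overlapped in neither gene, and the wild-type mice spread far more widely than the transgenic mice. WTUT-130 was the highest and WTUT-142 the lowest untrained wild-type mouse in both.

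Atp2a2, the calcium pump of slow and cardiac muscle, averaged 635 ± 123 intensity (SD, n = 5) in trained transgenic mice and 1989 ± 840.1 in untrained wild-type mice. It fell by 1.48 ± 0.31 log2 (limma adjusted p = 0.0116), and 3 of its 3 probe sets were called. Myh7, the slow myosin heavy chain, read 348, 510.1, 353, 434 and 332 in trained transgenic mice against 2797, 722, 1300.2, 1056 and 396 in untrained wild-type mice. The groups overlapped through WTUT-142. Myh7 fell by 1.26 ± 0.37 (limma adjusted p = 0.0448), a call that held in 9 of the 20 leave-one-out fits and was lost without any TGT mouse, without WTUT-130, WTUT-135, WTUT-136 or WTUT-138, and without WTT-129 or wtt-134. Myl2, Tnnt1, Tnni1 and Atp2a2 were called in all 20 leave-one-out fits. Tnnc1, Myl3 and Myoz2 had log2 values of -0.50, -0.63 and -0.98 that did not pass (limma adjusted p = 0.0515, 0.104 and 0.05004), and Casq2, a calcium store protein, stood at 0.04 ± 0.08. In whole muscle, fewer slow fibres and less of these transcripts per fibre cannot be told apart.

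The sequences before the start sites of Myh7 and Myl2 are given because both genes were lower together. They are the 250 bases upstream of the first start site in RefSeq (GRCm38.p6), chr14:54994627-54994876 on the minus strand for Myh7 and chr5:122092474-122092723 on the plus strand for Myl2. Both strands were searched for the M-CAT motif, CATTCC, and for the MEF2 motif, known from muscle promoters. Capitals mark a match.
Myh7: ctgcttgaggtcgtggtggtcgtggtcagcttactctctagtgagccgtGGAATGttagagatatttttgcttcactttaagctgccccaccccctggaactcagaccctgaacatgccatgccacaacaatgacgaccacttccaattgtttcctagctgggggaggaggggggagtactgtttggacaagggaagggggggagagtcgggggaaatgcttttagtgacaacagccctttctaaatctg
Myl2: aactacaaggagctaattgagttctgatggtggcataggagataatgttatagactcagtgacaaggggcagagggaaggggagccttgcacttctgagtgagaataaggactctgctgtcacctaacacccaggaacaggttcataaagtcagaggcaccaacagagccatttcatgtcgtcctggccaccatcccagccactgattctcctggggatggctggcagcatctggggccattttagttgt
Myh7 holds 1 M-CAT match, on the other strand, and Myl2 holds neither motif in this window. Of 27025 promoters of this length 12.6% hold M-CAT and 3.01% hold MEF2. The windows of Tnni1 and Tnnt1 held neither, and no upstream sequence was available for Atp2a2. Myh7, Myl2 and Tnni1 have 2 start sites each, and only the first was searched, so a motif at the other is not excluded.

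**Figure D1:**
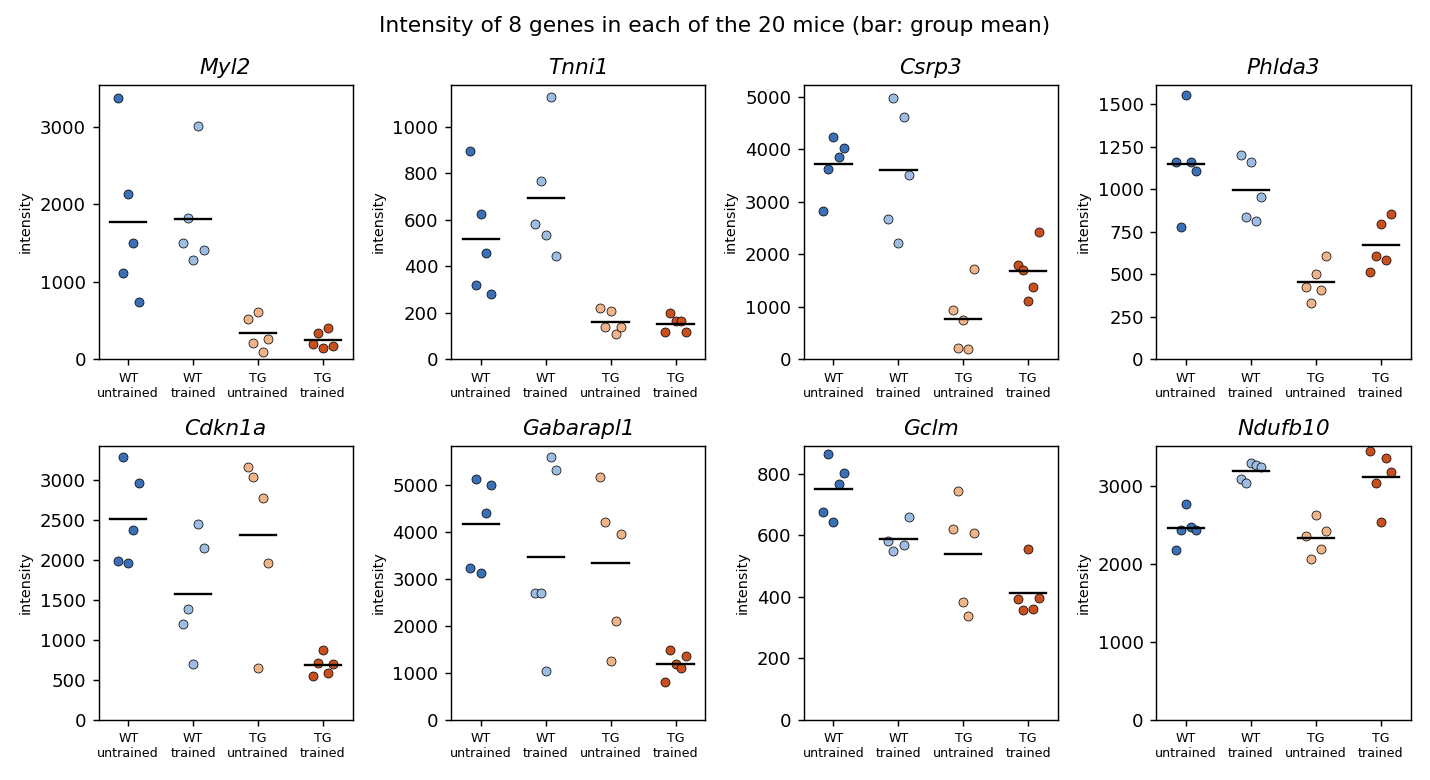
Intensity of 8 genes in each of the 20 mice, by group, with a bar at each group mean. All 5 trained transgenic mice lie below all 5 untrained wild-type mice in Myl2, Tnni1, Csrp3, Cdkn1a, Gabarapl1 and Gclm, and the groups overlap in Phlda3 and Ndufb10.

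Most of the genes that set untrained transgenic mice apart were also away from the untrained wild-type level in trained ones. In untrained transgenic minus untrained wild-type mice 12 genes were called (0.141% of 8486), and trained minus untrained transgenic mice gave 25 (0.295%). These comparisons share mice with each other and with the first one, so the values stand side by side and none supports another. Since the 12 were chosen on the untrained transgenic mice, a value nearer 0 in the trained mice is partly set by that choice.

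For 7 of the 12 the difference from untrained wild-type mice was, in trained transgenic mice, from 84.7% to 119% of its size in untrained ones. Myl2 stood at -2.20 in untrained and -2.43 in trained transgenic mice, and Tnni1 at -1.28 and -1.32. Tnfrsf12a, the receptor of the cytokine TWEAK, stood at -0.94 and -1.12. Xpo1, a nuclear export receptor, stood at -0.50 and -0.55, with 1 of its 3 probe sets opposite in sign. Olfm1, a secreted glycoprotein, stood at -0.52 and -0.51, Pdgfa, a growth factor of connective tissue cells, at -0.61 and -0.51, and Tef, a clock-controlled transcription factor, at 0.47 and 0.44. In trained transgenic mice Tnfrsf12a read 1056, 1339.8, 1254, 862 and 1081, all below the lowest untrained wild-type mouse at 1812. Tef read from 1410.0 to 1720.0 there, all above the highest untrained wild-type mouse at 1278.

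For the other 5 it was from 44.7% to 62.9% of that size, so trained transgenic mice stood nearer to untrained wild-type mice than untrained ones did. Csrp3, which encodes muscle LIM protein at the Z-disc, read 939.7, 213, 747, 182 and 1724 in untrained and 1798, 1699, 1107, 1379.7 and 2417 in trained transgenic mice. Untrained wild-type mice read 2828, 3619.7, 4232, 3865 and 4019. All 10 transgenic mice were thus below every untrained wild-type mouse. The difference was -2.56 log2 in untrained and -1.15 ± 0.40 in trained transgenic mice (limma adjusted p = 0.0924, interval from -1.99 to -0.30). The training step within transgenic mice was 1.42 ± 0.40 (limma adjusted p = 0.0842).

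Stretch-responsive Ankrd2, an ankyrin repeat protein, averaged 1044 ± 583 intensity in untrained and 1507 ± 326 in trained transgenic mice (SD, n = 5), and 3107 ± 355 in the 4 untrained wild-type mice with a value. It stood at -1.64 log2 in untrained and -1.03 ± 0.27 in trained transgenic mice (limma adjusted p = 0.0333), a call that held in 11 of the 20 leave-one-out fits and was lost without TGT-128, TGT-133, TGT-140, TGT-143 or any WTUT mouse. The training step was 0.61 (limma adjusted p = 0.23). In the Z-disc and stretch response list, 1 of 13 tested genes was lower, against 4.48% of all genes, and the median was -0.28. At an unadjusted p under 0.05 stood 7 of the 13, against 3024 of 13576 probe sets. The count of 1 was 5 with array weights or only the compared groups in the fit, and 0 to 3 with 1 array left out.

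Phlda3, a p53 target that restrains Akt signalling, read 510.4, 606, 793, 585 and 856 in trained transgenic mice and 1157, 777, 1552, 1159.9 and 1105 in untrained wild-type mice. The groups overlapped through WTUT-135. It stood at -1.22 log2 in untrained and -0.72 ± 0.17 in trained transgenic mice (limma adjusted p = 0.0211, lost without TGT-128, TGT-140 or WTUT-142). Hspa8, the constitutive Hsp70, stood at -0.35 and -0.22 ± 0.06 (limma adjusted p = 0.0363). Acvr2b, a receptor of myostatin and activin, stood at -0.28 and -0.15 ± 0.05 (limma adjusted p = 0.0887). The training step in transgenic mice was not called for any of these 3 (limma adjusted p = 0.14, 0.27 and 0.17).

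**Figure D2:**
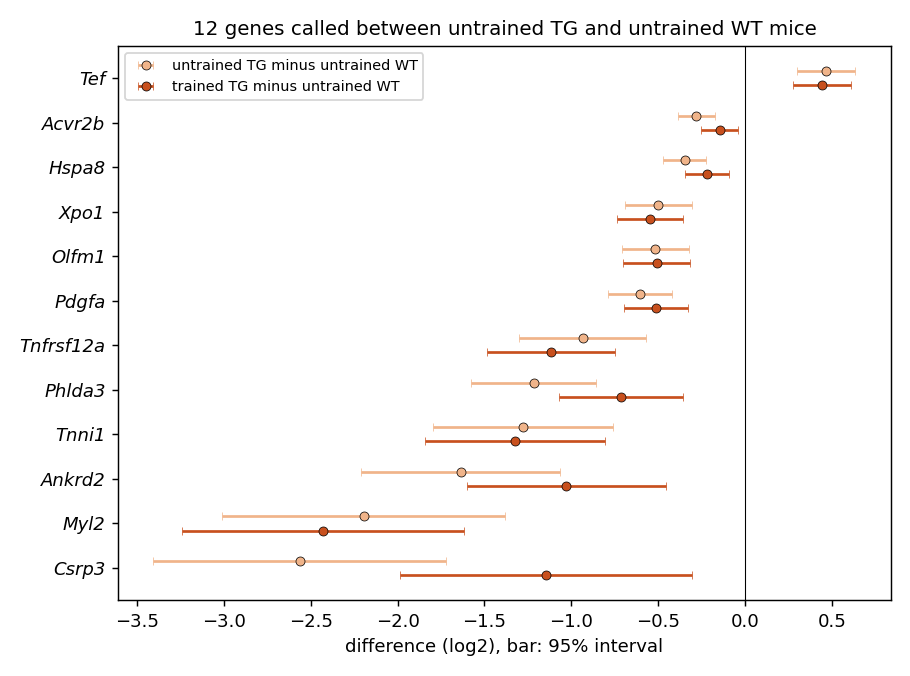
Log2 difference from untrained wild-type mice, with its 95% interval, for the 12 genes called in untrained transgenic mice, given for untrained and for trained transgenic mice (n = 5 each). Myl2, Tnni1, Tnfrsf12a, Olfm1, Xpo1, Pdgfa and Tef keep their distance from 0, while Csrp3, Ankrd2, Phlda3, Hspa8 and Acvr2b stand nearer to it; both values of a gene share the untrained wild-type mice.

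Genes listed for protein breakdown and atrophy were lower in trained transgenic than in untrained wild-type muscle. Of 25 tested, 14 were lower and none higher (median -0.59 log2), against 4.48% of all genes lower. In 16 of them all 5 trained transgenic mice lay below all 5 untrained wild-type mice, as in 7.32% of all genes. Gabarapl1, a protein of the autophagosome membrane, read 802, 1481, 1185, 1110.2 and 1361 against 3234, 5121, 3130.5, 4393 and 4990.3 in intensity. It fell by 1.75 ± 0.39 log2, 3.37-fold (limma adjusted p = 0.0155, lost without TGT-128 or WTUT-135). Ctsl, a lysosomal protease, fell by 1.44 ± 0.39 and Ulk1, the kinase that starts autophagy, by 1.27 ± 0.30. Foxo3, a driver of atrophy genes, averaged 300.4 ± 52.4 against 571 ± 74.5 intensity (SD, n = 5) and fell by 0.80 ± 0.20 (limma adjusted p = 0.0260).

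The list reaches over several systems, and some of its members are not genes of breakdown. On the side of autophagy and the lysosome, Bnip3, Sqstm1 and Ctsd had log2 values of -0.92, -0.61 and -0.33. The proteasome subunits Psmd11, Psma1 and Psmc4 stood at -0.59, -0.58 and -0.42. Eif4ebp1, a repressor of translation, stood at -1.03, the metallothioneins Mt1 and Mt2 at -0.94 and -1.05, and Foxo4 at -0.20. The ubiquitin ligase Fbxo32 (atrogin-1) had a difference of -1.13 ± 0.43 that did not pass (limma adjusted p = 0.114), although all 5 trained transgenic mice, from 1666 to 4930, lay below all 5 wild-type mice, from 5165 to 7171. Map1lc3a, another autophagosome protein, stood at 0.19 (limma adjusted p = 0.156). The count of 14 rested on single mice: it was 0 without TGT-128 or WTUT-135, 1 without TGT-140, 2 without WTUT-142, 6 without WTUT-130, 7 without TGT-143 and 9 without WTUT-138. With no filter on dim probe sets it was 8. Without probe sets that can bind several transcripts it was 6, and Gabarapl1 was then not tested.

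Genes known to respond to glucocorticoids were lower too. All 17 tested had values below 0, where the median of all genes was 0.02. Of them 8 were lower and none higher (median -0.60 log2), against 4.48% of all genes lower. Cdkn1a, the cell cycle inhibitor p21, read 549, 706, 868, 591 and 703 in trained transgenic mice and 1984, 3295, 1962, 2381 and 2971 in untrained wild-type mice. It fell by 1.77 ± 0.35 log2, 3.41-fold (limma adjusted p = 0.00878), and was called in all 20 leave-one-out fits. Cebpd, a transcription factor of the acute response, averaged 1085 ± 219 against 3500.3 ± 1142 intensity and fell by 1.59 ± 0.38 (limma adjusted p = 0.0210, lost without TGT-128, TGT-140, WTUT-135 or WTUT-142). Cebpb, Zbtb16, Klf9 and Glul, glutamine synthetase, stood at -0.76, -0.74, -0.66 and -0.60. Mt1, Mt2 and Cdkn1a count in a second list each. Fkbp5, a feedback regulator of the receptor, stood at -0.60 (limma adjusted p = 0.178), Tsc22d3 at -0.11 and Per1 at -0.13, neither past the threshold. The count of 8 was 1 without TGT-128, WTUT-135 or WTUT-142, 3 without TGT-140, 5 without TGT-143 and 4 without probe sets that can bind several transcripts. The part of glucocorticoid signalling in either list was not tested.

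**Figure D3:**
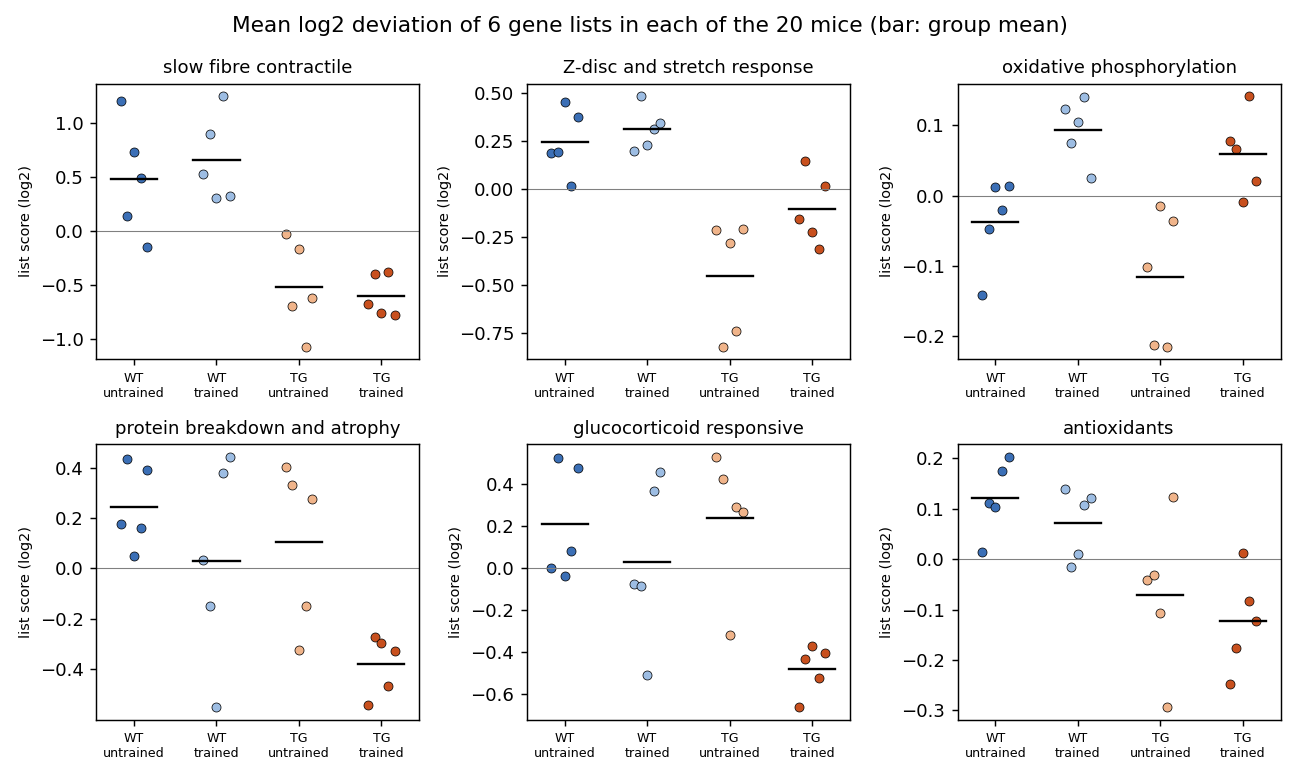
List score of 6 gene lists in each of the 20 mice, the mean log2 deviation of a list's tested genes from their own means over all arrays, with a bar at each group mean. Trained transgenic mice lie between -0.54 and -0.27 for protein breakdown and atrophy, and untrained wild-type mice between 0.05 and 0.43. The other 2 groups reach into both ranges.

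Clock genes differed in both directions. Dbp, an output gene of the clock, read 909.7, 145.9, 458, 586 and 439 in trained transgenic mice and 83.0, 108, 103, 86.7 and 92.5 in untrained wild-type mice. All trained transgenic mice were higher, TGT-132 least so. Dbp rose by 1.68 ± 0.45 log2, 3.19-fold (limma adjusted p = 0.0325, lost without TGT-128, TGT-140, TGT-143, WTUT-130, WTUT-135 or WTUT-142). Arntl, which encodes the clock activator BMAL1, read from 62.2 to 164 in trained transgenic and from 222 to 522 in untrained wild-type mice, and fell by 1.29 ± 0.29 (limma adjusted p = 0.0157, lost without TGT-128, WTUT-135 or WTUT-142). Tef rose by 0.44 ± 0.08 and Nr1d2, a repressor of Arntl, by 0.65 ± 0.19, a call held in 6 of the 20 fits. The 9 other tested clock genes, Clock (0.00), Nr1d1 (-0.06) and Per3 (0.03) among them, were not called. Of the 13 tested, 3 were thus higher and 1 lower, against 1.67% and 4.48% of all genes. At an unadjusted p under 0.05 stood 7 of the 13, against 3024 of 13576 probe sets. The groups did not overlap in 3 higher and 3 lower genes, against 3.41% and 7.32% of all genes. The count of 1 lower was 4 with array weights, 3 with only the compared groups, and 0 without TGT-128, WTUT-135 or WTUT-142.

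Mice outside the compared groups show the same genes at both levels. Of the 5 trained wild-type mice, wtt-137 had the highest Dbp (727) and the lowest Arntl (58.8), Gabarapl1 (1028), Cdkn1a (692), Cebpd (983) and Pdk4 (3441). The other 4 read between 74.0 and 127.1 for Dbp and between 2705 and 5592 for Gabarapl1. Of the untrained transgenic mice, TGUT-145 had Dbp at 403, Gabarapl1 at 1242 and Cdkn1a at 655, while TGUT-146 had Dbp at 461, Gabarapl1 at 2107 and Cdkn1a at 2781. The sources used here give no time of day or feeding state at sampling. The part of the clock genes' state in the lower values of breakdown and glucocorticoid genes was not tested, and it cannot be told apart from genotype and training in the 10 mice compared.

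Stress response genes were lower in part. Of 25 heat shock genes 4 were lower and none higher (median -0.26 log2), against 4.48% of all genes lower. Bag3, a co-chaperone in the removal of damaged filamin, read 1684, 1519, 1623, 1500.2 and 1695 in trained transgenic mice and 2087, 2718, 2971, 2234 and 3972 in untrained wild-type mice. The 5 transgenic values lie close together, below all wild-type values. Bag3 fell by 0.74 ± 0.13 log2 (limma adjusted p = 0.0051, called in all 20 leave-one-out fits). Hspb1, the small heat shock protein Hsp27, averaged 7138 ± 1816 against 11242 ± 1647 intensity and fell by 0.68 ± 0.17 (limma adjusted p = 0.0245, lost without TGT-128, TGT-140, WTUT-135 or WTUT-142). Cct2, of the chaperonin, stood at -0.30 and was not called under quantile normalization, nor was Hspa8. Hspa1b, an inducible Hsp70, ranged from 657 to 2638 and from 2214 to 7255 and was not called (-1.55 ± 0.77). The count of 4 was 1 without TGT-128, TGT-140, WTUT-135 or WTUT-142, and 2 without WTUT-136. It was 2 under quantile normalization and 9 with array weights or with only the compared groups in the fit. Without probe sets that can bind several transcripts it was 1, Bag3, with Hspb1, Hspa8 and Cct2 then not tested.

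Zfand2a, a stress-induced protein that works with the proteasome, read 202, 192, 242, 149 and 198 against 484, 589.7, 659.7, 649 and 828. It fell by 1.42 ± 0.21 log2, 2.67-fold (limma adjusted p = 0.0034), with no overlap and a call in all 20 leave-one-out fits. The upstream sequences of Hspb1 (chr5:135887669-135887918, plus strand) and Zfand2a (chr5:139484492-139484741, minus strand) are given as above. Both genes are known heat shock targets and were lower. Among the lower genes searched, only their windows held a match. Capitals mark the heat shock element, searched as GAANNTTC and TTCNNGAA, each of which reads the same on both strands.
Hspb1: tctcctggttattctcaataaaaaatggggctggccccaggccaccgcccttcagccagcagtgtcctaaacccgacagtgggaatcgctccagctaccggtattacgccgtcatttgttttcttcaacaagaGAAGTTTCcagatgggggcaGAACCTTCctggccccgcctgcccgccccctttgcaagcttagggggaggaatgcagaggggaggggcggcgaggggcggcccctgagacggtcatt
Zfand2a: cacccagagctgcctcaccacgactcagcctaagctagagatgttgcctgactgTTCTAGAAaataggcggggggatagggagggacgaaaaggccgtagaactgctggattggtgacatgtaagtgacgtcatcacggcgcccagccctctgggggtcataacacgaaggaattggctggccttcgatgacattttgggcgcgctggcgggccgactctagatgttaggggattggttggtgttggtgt
Hspb1 holds 2 matches and Zfand2a holds 1, while the windows of Bag3 and Cct2 hold none. No upstream sequence was available for Hspa8. Of 27025 promoters 12.9% hold either form. Cct2 has 2 start sites, and only the first was searched.

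In the unfolded protein response of the endoplasmic reticulum, 5 of 29 genes were lower, against 4.48% of all genes, none was higher and the median was -0.01 log2. They were Ppp1r15a, which restores translation after stress (-1.14), Dnajb9, a chaperone partner (-1.02), the transcription factors Xbp1 (-0.68) and Atf4 (-0.62), and the ubiquitin ligase Syvn1 (-0.23). Xbp1 read 929, 1006, 1086, 992 and 936 in trained transgenic mice and 1443, 1876, 1428, 1474 and 1991 in untrained wild-type mice, with no overlap. The central chaperone Hspa5 (BiP) stood at -0.26 ± 0.12 (limma adjusted p = 0.190) and Ddit3 (CHOP), the factor of terminal stress, at 0.05 ± 0.07 (limma adjusted p = 0.717). The count of 5 was 1 without TGT-128, 2 without WTUT-135 and 3 without TGT-140 or WTUT-142.

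Of 20 antioxidant genes 7 were lower and none higher, against 4.48% of all genes lower. The median was -0.12 log2, and 7 of the 20 had values above 0. Gclm and Gclc, the subunits of the enzyme that limits glutathione synthesis, stood at -0.78 ± 0.16 and -0.36 ± 0.09. Gclm read 393, 358, 556, 359 and 395 against 677, 866, 644, 766 and 802, and was called in all 20 leave-one-out fits. Txnrd1, thioredoxin reductase, stood at -0.79, Txn1, thioredoxin, at -0.53, Gsr, glutathione reductase, at -0.52, Gpx3, a secreted peroxidase, at -0.67 and Hmox1, haem oxygenase, at -0.59. Sod2, the mitochondrial superoxide dismutase, stood at 0.14 and was not called. The count of 7 was 2 without TGT-128 or WTUT-135, 3 without TGT-140 or WTUT-142 and 4 without TGT-143.

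Transcripts of the mitochondrial respiratory chain lay close to the untrained wild-type level, most of them slightly above it. Of 69 genes 5 were higher and none lower, against 1.67% of all genes higher. In 62 the value was above 0, and the median was 0.09 log2 against 0.02 for all genes. In 68 of the 69 the 95% interval lay within 0.5 log2 of 0, against 87.3% of all genes. Ndufb10, a subunit of complex I, read 3455, 3043, 2538, 3363 and 3189 in trained transgenic mice and 2181, 2439.7, 2778, 2483 and 2437 in untrained wild-type mice. The groups overlapped through TGT-133 and WTUT-136. It rose by 0.33 ± 0.08 log2, 1.25-fold (limma adjusted p = 0.0224). Atp5g1, of ATP synthase, rose by 0.29 ± 0.07, and the complex I subunits Ndufb7, Ndufv2 and Ndufb11 by 0.26, 0.18 and 0.16. The count of 5 was 26 under quantile normalization and 1 with arrays centred on their medians, so it depends on the scaling. It was 28 with array weights, 3 with no filter and 2 without probe sets that can bind several transcripts. It was 0 without TGT-128, TGT-140, WTUT-135 or WTUT-142, 1 without TGT-143, 2 without WTUT-130, and 8 without TGT-133 or TGUT-139.

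Other genes of energy supply were called singly. Of 21 genes of the tricarboxylic acid cycle and pyruvate entry limma called 0, with 7 at an unadjusted p under 0.05 and a median of 0.10 log2. Over all probe sets, 3024 of 13576 stood under that unadjusted threshold. Citrate synthase, Cs, stood at 0.17 ± 0.05 (limma adjusted p = 0.05001, just above the threshold). The nuclear receptor Esrra, which activates mitochondrial genes, rose by 0.28 ± 0.07, a call lost with arrays centred on their medians, and Gabpa, a partner factor, fell by 0.40 ± 0.11. Their coactivator Ppargc1a (PGC-1alpha) stood at -0.29 ± 0.37 with an interval from -1.07 to 0.49.

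In fuel choice, Pdk4, the kinase that shuts pyruvate dehydrogenase, read 1867, 6151, 4093, 3349 and 4823 in trained transgenic mice and 9019, 8992, 7907, 8961 and 8492 in untrained wild-type mice. The wild-type mice lie close together and the transgenic mice spread below them. Pdk4 fell by 1.18 ± 0.30 log2, 2.27-fold (limma adjusted p = 0.0244, lost without TGT-128, TGT-140, WTUT-135 or WTUT-142). With Acot2, a mitochondrial thioesterase (-0.50), it makes up the 2 lower of 26 fatty acid genes, against 4.48% of all genes lower. Among 20 glycogen and glycolysis genes Pgm1, phosphoglucomutase, rose by 0.46 ± 0.12. Fbp2, a muscle fructose bisphosphatase, fell by 0.41 ± 0.11 and Slc2a4, the insulin-regulated glucose transporter GLUT4, by 0.21 ± 0.06. The calls of Acot2 and Slc2a4 held in 8 and 6 of the 20 leave-one-out fits.

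Among the 15 genes with the largest positive differences, Mybph, a myosin-binding protein, averaged 1586 ± 379 against 751 ± 179.7 intensity (SD, n = 5) and rose by 1.01 ± 0.22 log2 (limma adjusted p = 0.0151, lost without WTUT-135). Cav3, the caveolin of muscle, read 485, 454, 399, 512 and 476 against 248, 247, 292, 211 and 276. It rose by 0.73 ± 0.14, 1.66-fold (limma adjusted p = 0.00673), and was called in all 20 leave-one-out fits. Alas1, the first enzyme of haem synthesis, averaged 1024 ± 64.2 against 676 ± 72.8 and rose by 0.56 ± 0.10 (limma adjusted p = 0.00594), also in all 20 leave-one-out fits. Aldh1a1, a retinaldehyde dehydrogenase, rose by 0.61 ± 0.14, from 598 to 883 in untrained wild-type mice to 1016 to 1325 in trained transgenic mice. The others were Myorg (0.83), BC023105 (0.79), Col1a2 (0.72), Smtn (0.70), Sypl2 of the triad membrane (0.66), Mtfp1 of mitochondrial fission (0.63), the endoplasmic reticulum lectin Mlec (0.62), Sdhaf4, an assembly factor of succinate dehydrogenase (0.60), and Abcd2, a peroxisomal transporter (0.59), beside Dbp and Nr1d2.

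Among the 15 largest negative differences, Enc1, an actin-binding protein, read 128.35, 99.5, 201, 135.4 and 145.956 in trained transgenic mice and 479, 552, 497, 525 and 417 in untrained wild-type mice, and fell by 1.44 ± 0.19 log2, 2.71-fold (limma adjusted p = 0.00306). Enc1 averaged 491 ± 30.5 in trained wild-type mice and ranged from 182 to 557 in untrained transgenic mice. Acss1, a mitochondrial enzyme that activates acetate, averaged 213 ± 34.1 (n = 5) against 1246 ± 513 in the 4 wild-type mice with a value and fell by 2.14 ± 0.48 (limma adjusted p = 0.0173, lost without TGT-128, WTUT-135 or WTUT-142). The rest, outside the lists above, were Gbp6, a guanylate-binding protein (-1.74), Lrrc58 (-1.68), Tbc1d15, a regulator of Rab GTPases (-1.59), Tmem140 (-1.56) and Snhg1, a host of small nucleolar RNAs (-1.44).

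Most fast fibre genes lay near the untrained wild-type level. Of 16 tested 1 was lower and none higher, against 4.48% of all genes lower, with a median of 0.03 log2. In 13 of the 16 the 95% interval lay within 0.5 log2 of 0, against 87.3% of all genes. The list's highest value was 0.46 for Casq1, which was not called. Mylk2, the kinase that phosphorylates fast myosin light chains, read 2580.0, 3153, 3520.0, 2559.7 and 3445 against 5371, 5161, 4754, 5038 and 5033. It fell by 0.73 ± 0.11 log2 (limma adjusted p = 0.00382), with no overlap and a call in all 20 leave-one-out fits. The interval of Myh4 ran from -0.04 to 0.10 and that of Mylpf, the fast regulatory light chain, from -0.01 to 0.14. Tnni2 and Tnnt3, the fast troponins, stood at -0.03 ± 0.02 and -0.01 ± 0.03. These signals lie near the highest value of the whole table, 19078, and whether they saturate was not tested. Myh1, the type IIx myosin, stood at 0.25 ± 0.08 with no overlap of the groups (limma adjusted p = 0.0515), and Myh2, the type IIa myosin, at 0.09 ± 0.23.

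Genes of class I antigen presentation did not pass in this comparison. H2-K1, a class I heavy chain, read 774, 737, 1750.3, 1117 and 958 in trained transgenic mice and 872, 784, 1078, 1559 and 1215 in untrained wild-type mice, with a difference of -0.07 ± 0.22 log2 (limma adjusted p = 0.893). The groups overlapped widely, and 3 of the 4 probe sets of H2-K1 had the opposite sign. H2-D1 stood at -0.04 ± 0.22, B2m, the light chain, at 0.08 ± 0.18 and Psmb8, an immunoproteasome subunit, at -0.02 ± 0.06. Of 12 tested genes of the list limma called 0, with 2 at an unadjusted p under 0.05 (median 0.03), and of 10 interferon response genes it called 0, with 0 at an unadjusted p under 0.05 (median 0.06). Tap1, the peptide transporter, was too dim to be tested. The sources used here do not say which transcript the transgene gives or whether these probes match it, so the values do not check the genotype labels.

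Markers of the other cells in a muscle were mostly not called. Summed over all macrophage markers on the array, intensity ran from 3155 to 3807 in trained transgenic and from 3175 to 3630.0 in untrained wild-type mice, and limma called 0 of 12 (0 at an unadjusted p under 0.05). Of the T cell markers it called 0 of 5, again with 0 at an unadjusted p under 0.05, and Cd3e, Cd3d and Cd3g were below the filter. Of the B cell markers, Ighm, the immunoglobulin M heavy chain, averaged 1007 ± 189 against 1979.7 ± 212 intensity and fell by 0.94 ± 0.19 (limma adjusted p = 0.00939), called in all 20 leave-one-out fits and left out with the probe sets that can bind several transcripts. However, 2 of its 5 probe sets had the opposite sign, and Cd79a, Cd79b and Ms4a1 were below the filter. The 3 other tested B cell markers had values above 0, the highest 0.17 for H2-Ab1, and the median of the 4 tested was 0.11. Adipocyte markers spread from 9164 to 29740.1 in trained transgenic and from 12814 to 27985 in untrained wild-type mice (0 of 11 called, 1 at an unadjusted p under 0.05).

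Of 9 endothelial markers, and of 16 vascular and VEGF genes, the same 2 were lower, against 4.48% of all genes lower. Cldn5 and Cdh5, both junction proteins, fell by 0.68 ± 0.20 and 0.33 ± 0.09 log2. The groups overlapped in both genes, and the calls held in 7 and 14 of the 20 leave-one-out fits. Each list's count of 2 was 0 without TGT-128, TGT-133, TGT-140, TGT-143 or WTUT-142. It was 1 with arrays centred on their medians or with no filter. Summed endothelial markers ran from 2816 to 3341 in trained transgenic and from 3002 to 3866 in untrained wild-type mice. Of 9 fibroblast markers 1 was higher, against 1.67% of all genes, namely Col1a2, a chain of type I collagen. It read 1094, 1039, 1260.1, 1181 and 1572 against 698, 497, 953, 847 and 639.5, and rose by 0.72 ± 0.19 log2 (limma adjusted p = 0.0327, called in 13 of the 20 fits). Ogn, a small proteoglycan of the matrix, rose by 0.49 ± 0.13. With Col1a2 it made up the 2 higher of 22 collagen and matrix genes (median 0.10), against 1.67% of all genes higher. That count was 0 without TGT-128, TGT-133, TGT-140, TGT-143, WTUT-135 or WTUT-142 and 4 without TGUT-145. The fibroblast count of 1 was 3 with array weights or only the compared groups in the fit, and 0 without TGT-128, TGT-133, TGT-140, TGT-143, WTUT-130, WTUT-135 or WTUT-142. Summed fibroblast markers ran from 7261 to 9844 in trained transgenic and from 5275 to 8315 in untrained wild-type mice. In 3 of the 9, Col1a1, Col1a2 and Col3a1, all chains of fibrillar collagens, every trained transgenic mouse lay above every untrained wild-type mouse, as in 3.41% of all genes. The list ran from -0.11 log2 for Dcn to 1.14 for Col3a1, with a median of 0.18. In 7 of the 9 the value was above 0 and in 2 below. Averaged over the 9 markers as log2 deviations from their means over all 20 mice, the groups did not overlap either, from 0.02 to 0.26 in trained transgenic and from -0.47 to -0.04 in untrained wild-type mice. Their part in the other differences was not tested.

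Genes of growth, repair and excitability were mostly not called. Of 15 p53 targets 2 were lower, Cdkn1a and Phlda3, against 4.48% of all genes lower. The list's median was -0.46 log2. At an unadjusted p under 0.05 stood 10 of the 15, against 3024 of all 13576 probe sets. Sesn1, an inhibitor of mTOR signalling, stood at -1.64 (limma adjusted p = 0.0608). The count of 2 was 6 with array weights and 5 with only the compared groups in the fit. It was 4 without wtt-137 and 1 without TGT-128, TGT-140 or WTUT-142. Of 14 genes of satellite cell regulation and insulin-like growth factor signalling 1 was higher, against 1.67% of all genes higher. This was Smad3, which carries the signal of myostatin and TGF-beta receptors. It read 612, 707, 593, 573 and 612 in trained transgenic and 496, 484, 483, 430.2 and 400.2 in untrained wild-type mice, with no overlap, and rose by 0.39 ± 0.10 log2 (limma adjusted p = 0.0259, lost without TGT-128, TGT-132, TGT-143, WTUT-135 or WTUT-142). Of 14 regeneration and embryonic muscle genes limma called 0 (2 at an unadjusted p under 0.05), with Myog, a factor of myoblast differentiation, at 0.24 ± 0.27. Of 13 sodium pump and excitability genes it called 0 as well (4 at an unadjusted p under 0.05). Of the smooth muscle and pericyte markers 1 of 7, Smtn, was higher, against 1.67% of all genes. Of the nerve and erythrocyte markers limma called 0 of 5 and 0 of 2, with 1 and 0 at an unadjusted p under 0.05.

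The second comparison, untrained transgenic minus trained wild-type mice, sets the same genotypes against each other with the training turned round. It called 182 of 8486 genes (2.14%), 39 higher (0.46%) and the rest lower (1.69%). These calls rest on the spread of all 4 groups: with only the compared groups in the fit, 3 genes were called in the second comparison (4 probe sets in place of 281), Tnni1, Casq2 and the glucose transporter Slc2a3. By arithmetic, a difference that goes with genotype has the same sign in both comparisons, and a difference that goes with training has opposite signs. Of the genes higher in trained transgenic mice, 47 had the same sign in the other 10 mice and 95 the opposite sign, and their median there was -0.07 log2. Of the 380 lower genes, 233 had the opposite sign and the rest the same sign, with a median of 0.05. Of all 8486 genes 4167 had the same sign and 4319 the opposite.

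In the fit of all 4 groups 21 genes were called in both comparisons, and 8 of them went the same way. With only the compared groups in the fit, Tnni1 alone was called in both. The 21 became 9 without probe sets that can bind several transcripts, 12 with arrays centred on their medians, 36 under quantile normalization, 194 with array weights and 32 without TGT-133 and wtt-137. They became 5 without TGT-128, 6 without WTUT-135, 7 without WTT-141, 8 without TGT-140 or WTUT-142, 11 without TGT-143 and 13 without WTUT-130, and rose to 34 without TGT-133 and 39 without TGUT-145. Myl2 (-2.43 and -2.33), Tnnt1 (-2.14 and -1.83), Atp2a2 (-1.48 and -1.40), Tnni1 (-1.32 and -1.70), Ankrd2 (-1.03 and -1.66), Phlda3 (-0.72 and -1.03) and Ehd4, an endocytic ATPase (-0.59 and -0.59), were lower in transgenic mice in both, and Aldh1a1 (0.61 and 0.68) was higher in both. The other 13 went opposite ways, higher in trained transgenic mice and lower in untrained transgenic mice. They were Ndufb10 (0.33 and -0.44), Atp5g1 (0.29 and -0.43), Ndufb7 (0.26 and -0.35), Sdhaf4 (0.60 and -0.56), the mitochondrial carrier Slc25a11 (0.42 and -0.30), the aspartate aminotransferase Got2 (0.27 and -0.27), the mitochondrial creatine kinase Ckmt2 (0.31 and -0.42), the mitochondrial ribosomal protein Mrps12 (0.30 and -0.39), and Cmc2, Ptcd2, Spr, Rangrf and Adamtsl5, with values from 0.22 to 0.38 and from -0.42 to -0.27. Ehd4 and the genes from Slc25a11 on were named after their values were seen.

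The medians of the lists are given side by side, and whether the lists differ between the comparisons was not tested. For slow fibre genes the median was -1.12 in the first and -1.26 in the second comparison, where 6 of 10 were lower, and the Z-disc list had -0.28 and -0.66. The respiratory chain list had 0.09 and -0.20, with 5 of 69 higher in the first and 19 lower in the second. With only the compared groups in the fit, the counts of 6 and 19 became 2 and 0. For protein breakdown and atrophy (-0.59 and 0.05) and the glucocorticoid list (-0.60 and 0.17), 14 of 25 and 8 of 17 were lower in the first comparison and 1 and 0 in the second. Counts in the second comparison also rested on single mice: of 281 probe sets called (2.07%), between 54 (without WTT-141) and 187 (without wtt-134) were called without TGUT-131, TGUT-139, TGUT-146, WTT-129, wtt-134, wtt-137 or WTT-141.

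**Figure D4:**
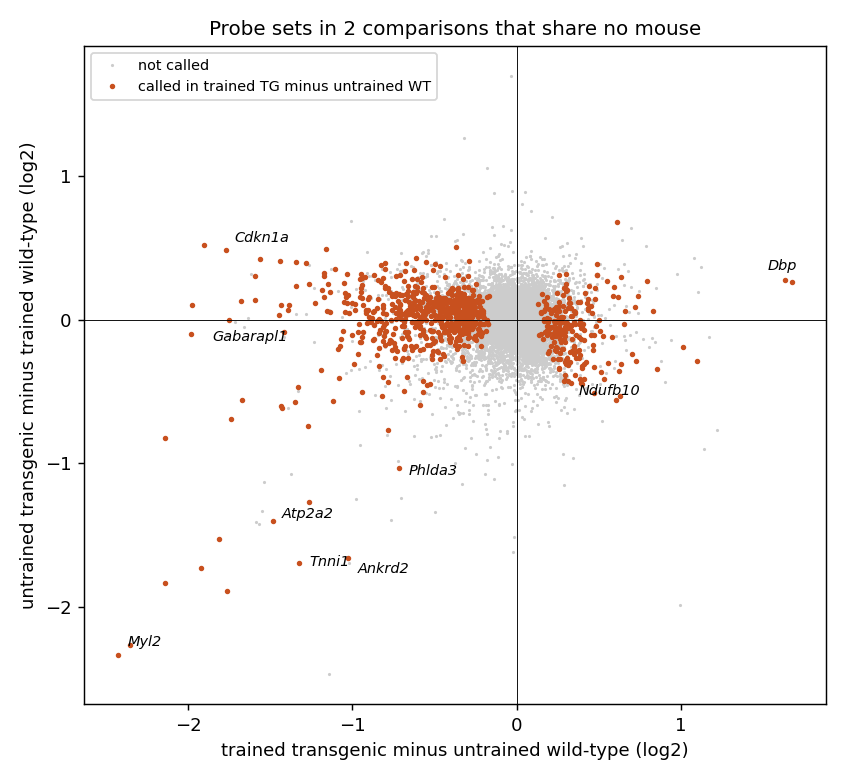
Log2 difference of each of 13576 probe sets in trained transgenic minus untrained wild-type mice (horizontal) and in untrained transgenic minus trained wild-type mice (vertical), which share no mouse. Coloured points are the 857 called in the first; slow fibre genes lie low on both axes, Cdkn1a (-1.77 and 0.49) and Gabarapl1 (-1.75 and 0.00) are low on the horizontal axis and not on the vertical one, and Ndufb10 is above 0 on the first and below 0 on the second.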

How the data were processed

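RNA of 20 mice was measured on 20 one-colour Affymetrix mouse arrays, 5 per group, grouped by the titles. The deposited values are linear intensity, 1 per probe set and array, as their range shows. How the authors summarised and scaled them is not given in the sources used here, and a scaling to a shared level would hide a change of all transcripts together. No intensity was renormalized. Of 22690 probe sets 64 are controls. Of the rest 20380 have 1 gene symbol in GEO's platform annotation, 691 several and 1555 none. Of all cells 0.385% are empty and were left out of the fit for that probe set.

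The deposited intensity was turned to log2 after adding 66.7, the 20th percentile, so fold changes of dim genes are understated. Probe sets with a mean log2 under 7.59 (intensity 126, the 40th percentile) were left out, leaving 13576, and the brightest tested probe set stood for each of 8486 genes. limma 3.58.1 in R 4.3.3 fitted the 4 group means with a variance trend (16 residual and 3.47 prior degrees of freedom), Benjamini-Hochberg adjustment ran over all probe sets tested, and a p under 0.05 was called. Errors beside log2 values are SE and intervals cover 95%. The precision is limited by the number of arrays. The labels name 1 mouse per array and no batch.

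On simulated data with 200 changed probe sets of 13576, built for trained transgenic minus untrained wild-type mice, 43.8% of changes of 0.3 log2, 78.8% of 0.5 and 97.1% of 1 were found, and 5.53% of calls were false. The simulated noise was normal, independent between probe sets and mice, and of the same spread in all 4 groups. The measured data need not meet these terms, so the 5.53% does not give the share of false calls among the 857.

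Named genes are the 15 largest called differences in each direction, the genes called in untrained transgenic minus untrained wild-type mice, the largest called members of each of 31 gene lists, and genes fixed by name. Other list members given with values were chosen after their values were seen. The members and lists were chosen with earlier results of these data known. A description field that calls all mice trained and transgenic was not used. Alternatives were other normalizations, added constants, filters, variance settings, samples and probe sets, and leaving out each array. Leaving out TGT-133 and wtt-137 together was chosen after seeing the data.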

Additional observations from a re-analysis of the deposited data

Results flagged for a closer look

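Of 178 groups of 4 or 5 values checked for a single mouse far from the others, 2 were picked out, 1.12%, where chance picks out about 1 in 20. Gclm in TGT-133 read 556.253, against 358.101 to 394.921 in the other 4 trained transgenic mice, and that array has 386 empty cells. Myh2 in TGT-132 read 4953.02, against 6650.46 to 7066.83 in the other 4.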

How the results depend on the processing

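No paired analysis was possible because the mouse numbers in the titles are not shared between groups. The 857 probe sets called became 2570 with array weights, 1654 with only the compared groups in the fit and 470 without probe sets that can bind several transcripts, and 177 to 1193 with 1 array left out. The share called higher, 1.56% of probe sets tested, became 3.23% under quantile normalization, 0.95% with arrays centred on their medians, 0.76% with no filter, 6.88% with array weights and 3.48% with only the compared groups, and 0.147% to 2.3% with 1 array left out. The share called lower, 4.75%, became 2.42% with no filter, 12.1% with array weights and 8.7% with only the compared groups, and 1.16% to 6.49% with 1 array left out. Without probe sets that can bind several transcripts, the shares of the fewer probe sets tested were 1.42% and 3.87%. That setting also takes genes out of the test, so counts of genes under it can fall without a call being lost. The 281 of the second comparison became 157 with centred arrays, 181 with no filter, 935 with array weights, 4 with only the compared groups, 123 without probe sets that can bind several transcripts, 164 without TGT-133 and wtt-137, and 54 to 374 with 1 array left out. The causes were not tested.

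The log2 values that changed sign belong to genes not called. With 1 array left out H2-D1 ran from -0.22 to 0.087, H2-K1 from -0.26 to 0.058, Psmb8 from -0.054 to 0.0072, B2m from -0.071 to 0.16, Tnnt3 from -0.021 to 0.0069, Myh2 from -0.044 to 0.18 and Casq2 from -0.0084 to 0.082. H2-D1 was 0.043 under quantile normalization, and without TGT-133 and wtt-137 B2m was -0.071 and Tnnt3 0.00058.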
